A study of Homo sapiens with 8 samples.

Results

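Semaphorins are secreted or membrane-bound guidance cues, and the members of class 3 are the secreted ones. Most class 3 semaphorins bind a neuropilin, which has little signalling capacity of its own, and the neuropilin recruits a plexin, whose cytoplasmic domain regulates small GTPases and so the actin cytoskeleton and cell adhesion. Neuropilins also bind VEGF family growth factors, and in carcinomas this system is known for its part in cell migration and in the growth of blood vessels. The 10 genes described here are 4 class 3 semaphorins (SEMA3A, SEMA3B, SEMA3C and SEMA3F), both neuropilins (NRP1 and NRP2) and 4 plexins (PLXNA1, PLXNA2, PLXNB1 and PLXND1), out of 56638 genes in each count table. They were selected on measured values, namely their levels and their change after loss of ETS1 in these same libraries, so the values of these 10 genes are given as a description, and their place past or short of a threshold supports nothing beyond itself.

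The libraries come from SCC25, a human squamous carcinoma line of the tongue that served as a model of head and neck squamous cell carcinoma (HNSCC) with high ETS1, and the study asked which genes depend on this transcription factor. No editing of the ETS1 gene is described for any of the 8 libraries. The cells were grown in DMEM/F12 medium with serum and hydrocortisone. In the short-term arm, cells received by lipid transfection either a pool of siRNAs against ETS1 (ETS1 siRNA, n = 2) or non-targeting siRNAs (siRNA control, n = 2). In the long-term arm, cells were transduced with lentivirus and selected with puromycin. They carried either 1 hairpin against ETS1 (shETS1, n = 2) or a non-targeting hairpin (shCON, n = 2). Each arm was therefore compared with its own control, and the kind of knockdown cannot be told apart from its duration, the virus and the antibiotic. The paper used 2 hairpins against ETS1, and both shETS1 libraries carry the one it describes as more robust. Effects particular to that hairpin cannot be told apart from those of ETS1 loss. The siRNA replicates were separate treatments of the cells, and for the hairpin lines nothing says whether the replicates were separate cultures, so the errors there may be technical only.

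RNA was sequenced from TruSeq libraries, and 15954616 to 25953213 reads per library were assigned to genes. Levels are given in CPM (read counts scaled to library size with TMM factors within each arm), so that levels are compared within an arm only. ETS1 fell in both arms, from 268 ± 28.6 to 15.3 ± 2.97 CPM (SD, n = 2) with siRNA and from 77.2 ± 7.20 to 10.4 ± 0.919 CPM (SD, n = 2) with the hairpin. Structural small RNAs took at most 0.00339% of the counts in the siRNA arm, 5.61% and 6.63% in shCON, and 12.3% and 9.64% in shETS1. All 7 squamous markers were present at 1 CPM or more in each group, summing to 14900 to 19700 CPM in siRNA control and 22600 to 26600 CPM in ETS1 siRNA, and to 15300 to 15400 CPM in shCON and 25300 to 25500 CPM in shETS1. Of the markers of other cell types, the 4 endothelial ones summed to at most 1.12 CPM with PECAM1 at 0 throughout, the 4 leukocyte ones to at most 4.01 CPM and the 4 neuronal ones to at most 7.76 CPM, mostly SYT1. The 4 fibroblast markers summed to 23.1 to 23.3 CPM in siRNA control and 27.9 to 31.2 CPM in ETS1 siRNA. In the hairpin arm they summed to 225 to 256 CPM in shCON and 1940 to 2040 CPM in shETS1, carried by DCN and LUM. PDGFRA was higher too, at 1.35 and 1.16 CPM in shCON and 2.48 and 3.25 CPM in shETS1. PDGFRB stayed at or under 0.392 CPM in the hairpin libraries. The squamous and fibroblast sums were higher in the knockdown libraries of both arms, and the structural RNA share was higher in shETS1 than in shCON. Of the squamous markers, KRT5, KRT14, KRT6A, DSG3 and PKP1 were higher in shETS1. TP63 was lower, at 632 and 612 CPM in shCON and 424 and 519 CPM in shETS1, as was SFN, at 480 and 470 against 430 and 416 CPM. The part of these shifts in the changes described here was not tested. In bulk RNA, fewer cells with a transcript and less of it per cell cannot be told apart.

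With the hairpin against ETS1, 6 of the 10 genes fell, 1 rose and 3 did not pass the test. The 7 that moved passed the threshold of an adjusted p under 0.1 (edgeR's quasi-likelihood test across all genes), where 60.6% of the 16481 genes tested also did. SEMA3C rose, among 29.7% of all genes called higher, and SEMA3A, SEMA3F, NRP1, NRP2, PLXNA1 and PLXNA2 fell, among 30.9% called lower. The median log2 fold change of the 10 genes was -0.74 with the hairpin, against 6.64e-04 over all genes tested. With siRNA, SEMA3A alone passed, as lower, where 3.41% of 14742 genes were called, 1.13% as higher and 2.27% as lower. The median of the 10 genes was then -0.03, against 0.00182 over all genes. As the 10 genes were chosen from these contrasts, nothing is read from those shares.

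**Figure D1:**
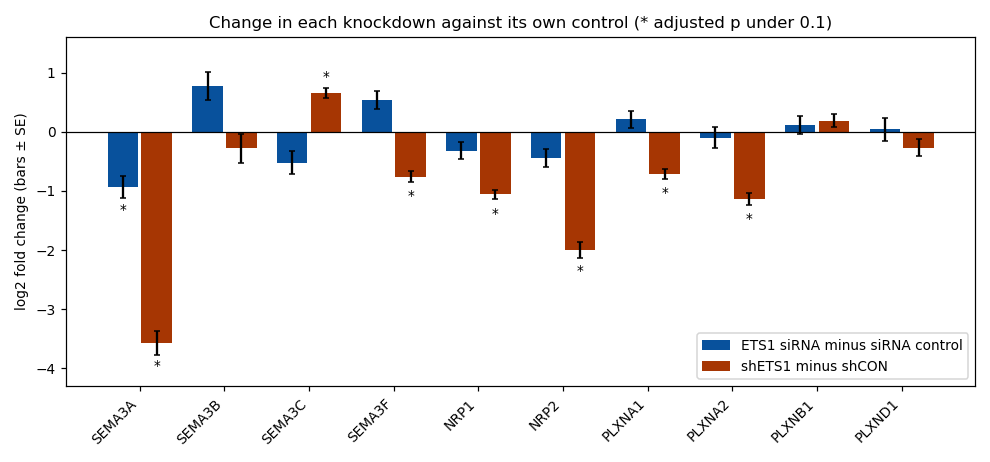
Log2 fold change of each of the 10 genes (y axis) in the short-term arm (ETS1 siRNA minus siRNA control, blue) and the long-term arm (shETS1 minus shCON, brown), with bars for the standard error of the fit on 4 libraries each and asterisks where the adjusted p was under 0.1. SEMA3A was below 0 in both arms with asterisks, at -0.93 and -3.57, and SEMA3C and SEMA3F lay on opposite sides of 0 in the 2 arms.

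SEMA3A, the class 3 semaphorin best known as a repellent of axons and endothelial cells that signals through NRP1 and A-type plexins, had the largest fall. It lies at chr7:83585093-84122040 on the minus strand (GRCh37). In the short-term arm SEMA3A stood at 27.3 and 30.9 CPM in siRNA control and at 18.0 and 12.5 CPM in ETS1 siRNA. In the long-term arm SEMA3A stood at 9.23 and 9.67 CPM in shCON and at 0.784 and 0.793 CPM in shETS1, the latter resting on 18 and 20 reads. Both knockdown libraries lay below both controls in each arm. The fall was 1.91-fold with siRNA (log2 -0.93 ± 0.19 SE) and 11.9-fold with the hairpin (log2 -3.57 ± 0.20 SE), and that of SEMA3A with the hairpin ranked 32nd from the lowest log2 fold change of 16481 genes, with siRNA 269th of 14742. The siRNA value of SEMA3A was short of the threshold without siRNA control replicate 1 (log2 -1.02) and in a fit with the replicate number as a block (log2 -0.95).

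SEMA3C, a semaphorin often described as promoting rather than restraining tumour cell migration, was the one ligand that rose with the hairpin. SEMA3C lies at chr7:80371854-80551675 on the minus strand, on the same chromosome arm as SEMA3A. In the long-term arm SEMA3C stood at 331 and 343 CPM in shCON and at 544 and 520 CPM in shETS1. The gain was 1.58-fold (log2 0.66 ± 0.08 SE) and the groups did not overlap. In the short-term arm SEMA3C stood at 399 and 276 CPM in siRNA control and at 211 and 260 CPM in ETS1 siRNA. Both knockdown libraries were again outside the controls but below them (log2 -0.52 ± 0.19 SE), and the gap between the siRNA controls was wider than that between the groups' nearest libraries. This value missed the threshold in the main edgeR fit and passed with DESeq2, but not with a replicate block. It rested on the controls, being -0.76 without siRNA control replicate 2 and -0.23 without siRNA control replicate 1.

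SEMA3F, which signals mainly through NRP2 and has been described as a tumour suppressor, also lay on opposite sides in the 2 arms. It lies at chr3:50192478-50226508 on the plus strand. In the short-term arm SEMA3F stood at 54.2 and 69.2 CPM in siRNA control and at 94.1 and 84.8 CPM in ETS1 siRNA. Both knockdown libraries were above the controls (log2 0.54 ± 0.15 SE), short of the threshold in the main edgeR fit. This siRNA value passed with DESeq2, with at least 10 counts per library and with a filter at 1 TPM, but not with a replicate block. In the long-term arm SEMA3F stood at 46.3 and 43.4 CPM in shCON and at 26.4 and 26.6 CPM in shETS1. It fell 1.69-fold (log2 -0.76 ± 0.09 SE), with no overlap. An antisense transcript, SEMA3F-AS1, shares 2.28% of its exonic bases, and the sources used here do not say whether strand was counted.

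SEMA3B, a neighbour of SEMA3F on the short arm of chromosome 3 (chr3:50304990-50314977, plus strand) that is known as a growth-restraining ligand, had the lowest level per length of the ligands in siRNA control. SEMA3B stood at 4.18 and 4.80 CPM in siRNA control and at 6.23 and 9.01 CPM in ETS1 siRNA, with the knockdown libraries above the controls (log2 0.77 ± 0.24 SE). In the long-term arm SEMA3B stood at 2.03 and 2.47 CPM in shCON and at 2.00 and 1.70 CPM in shETS1. The hairpin groups were separated by a narrow margin, 2.03 against 2.00 CPM at their nearest libraries, with a log2 fold change of -0.28 ± 0.24 SE. Neither value of SEMA3B passed the threshold, and the hairpin libraries held 43 to 64 reads of it each. The siRNA value of SEMA3B was 1.01 and passed without ETS1 siRNA replicate 1, and was 0.47 without ETS1 siRNA replicate 2.

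**Figure D2:**
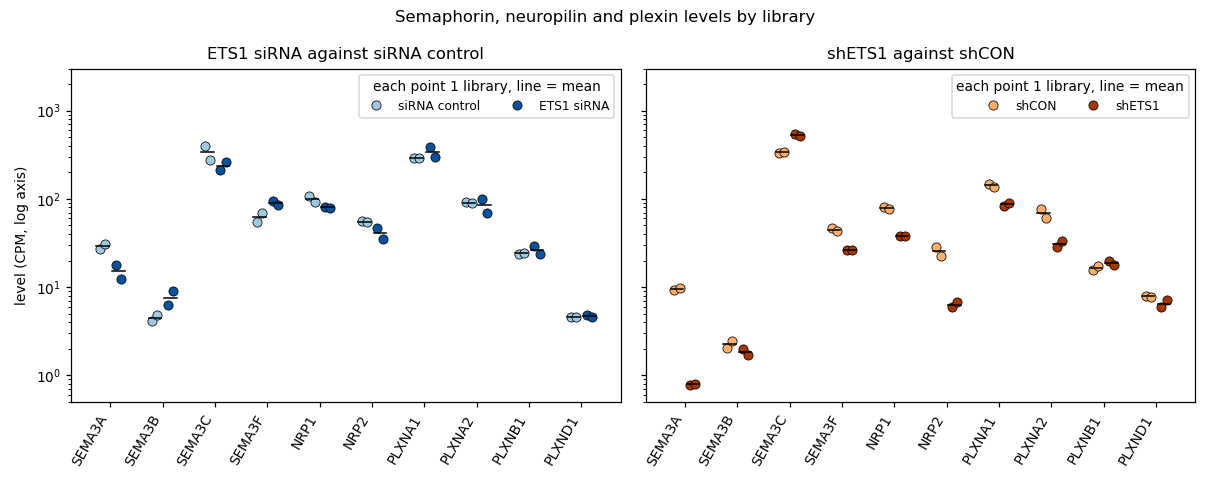
Level of each of the 10 genes in CPM (log axis) in the 8 libraries, with the short-term arm on the left and the long-term arm on the right, 1 point per library and a line at the mean of each group. SEMA3A drops from 9.23 and 9.67 CPM in shCON to 0.784 and 0.793 CPM in shETS1, while SEMA3C goes from 331 and 343 CPM to 544 and 520 CPM.

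Both neuropilins fell with the hairpin. NRP1, the co-receptor for SEMA3A and for VEGF-A, lies at chr10:33466420-33625190 on the minus strand. NRP1 stood at 81.8 and 77.4 CPM in shCON and at 38.0 and 38.2 CPM in shETS1, a fall of 2.09-fold (log2 -1.06 ± 0.08 SE). With siRNA NRP1 stood at 109 and 91.1 CPM in the control and at 80.8 and 79.6 CPM in the knockdown (log2 -0.32 ± 0.14 SE), short of the threshold. NRP2, the co-receptor preferred by SEMA3F and shared with VEGF-C, lies at chr2:206546714-206662857 on the plus strand. NRP2 stood at 28.6 and 22.5 CPM in shCON and at 5.97 and 6.74 CPM in shETS1, a fall of 4.01-fold (log2 -2.00 ± 0.13 SE) that ranked 242nd from the lowest of all genes tested. With siRNA NRP2 stood at 56.2 and 54.5 CPM in the control and at 46.4 and 35.5 CPM in the knockdown (log2 -0.44 ± 0.15 SE), short of the threshold. This value of NRP2 was -0.64 and passed without ETS1 siRNA replicate 1, and was -0.26 without ETS1 siRNA replicate 2. In both arms the knockdown libraries of both neuropilins lay below their controls. Unnamed lncRNAs on the other strand share 4.87% of the exonic bases of NRP1 and 1.06% of those of NRP2.

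Of the plexins, the A-type ones fell with the hairpin. PLXNA1, a signalling partner of the neuropilins, lies at chr3:126701536-126756232 on the plus strand. PLXNA1 stood at 147 and 137 CPM in shCON and at 83.2 and 90.3 CPM in shETS1, a fall of 1.64-fold (log2 -0.71 ± 0.08 SE). With siRNA PLXNA1 stood at 294 and 294 CPM in the control and at 384 and 297 CPM in the knockdown, with the 2nd knockdown library close to the controls (log2 0.21 ± 0.15 SE). PLXNA2, an A-type plexin that also serves as a receptor for class 6 semaphorins, lies at chr1:208195587-208417729 on the minus strand. PLXNA2 stood at 76.1 and 61.2 CPM in shCON and at 28.8 and 33.3 CPM in shETS1, a fall of 2.21-fold (log2 -1.14 ± 0.10 SE). With siRNA PLXNA2 stood at 91.4 and 90.4 CPM in the control and at 101 and 68.5 CPM in the knockdown, which straddled the controls (log2 -0.10 ± 0.18 SE).

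The other two plexins did not pass the threshold in either arm. PLXNB1, the receptor for the membrane-bound SEMA4D, lies at chr3:48445261-48471495 on the minus strand. PLXNB1 stood at 24.0 and 24.1 CPM in siRNA control and at 29.0 and 23.5 CPM in ETS1 siRNA, and at 15.6 and 17.5 CPM in shCON and 20.0 and 17.9 CPM in shETS1. Its siRNA groups overlapped and its hairpin groups did not, with log2 fold changes of 0.12 ± 0.15 SE and 0.19 ± 0.11 SE. PLXND1, the receptor that SEMA3E can bind without a neuropilin, lies at chr3:129274057-129325519 on the minus strand. PLXND1 stood at 4.63 and 4.61 CPM in siRNA control and at 4.89 and 4.63 CPM in ETS1 siRNA, and at 7.96 and 7.71 CPM in shCON and 5.88 and 7.06 CPM in shETS1. Its log2 fold changes were 0.04 ± 0.20 SE and -0.27 ± 0.14 SE. Without shETS1 replicate 2 the hairpin values of both PLXNB1 (log2 0.27) and PLXND1 (log2 -0.41) passed. In the hairpin arm the groups of all 10 genes did not overlap, including the 3 genes that missed the threshold (SEMA3B, PLXNB1 and PLXND1), and the same held for 76.6% of all genes tested. In the siRNA arm the groups of 7 of the 10 genes did not overlap, against 51.9% of all genes tested.

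**Figure D3:**
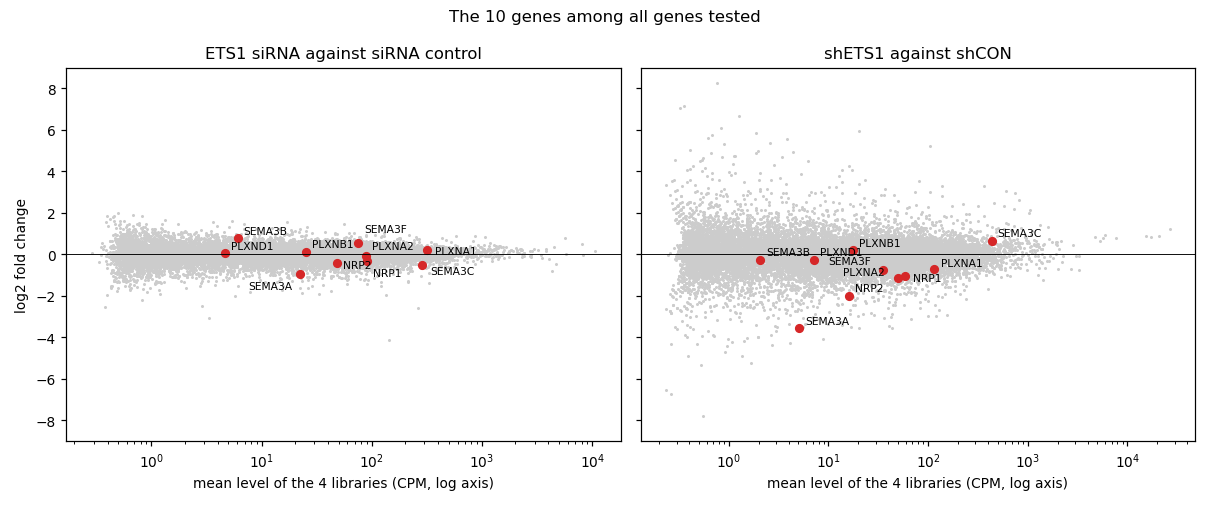
Log2 fold change (y axis) against mean level in CPM (log axis) for all genes tested in the short-term (left) and long-term (right) arm in grey, with the 10 genes in red. The 10 genes lie inside the grey cloud in the siRNA arm, and SEMA3A (-3.57) and NRP2 (-2.00) lie near its lower edge in the hairpin arm.

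The effect of the hairpin minus that of the siRNA was fitted for each gene on all 8 libraries, and 34.8% of 17190 genes passed the threshold for that difference, 15.1% as higher and 19.7% as lower. Of the 10 genes, 8 passed, SEMA3C as higher with the hairpin (log2 difference 1.15 ± 0.22 SE) and 7 as lower. The differences of these 7 were -2.66 ± 0.29 for SEMA3A, -1.59 ± 0.22 for NRP2, -1.32 ± 0.18 for SEMA3F, -1.07 ± 0.33 for SEMA3B, -1.06 ± 0.25 for PLXNA2, -0.94 ± 0.17 for PLXNA1 and -0.76 ± 0.15 for NRP1 (log2 difference ± SE). PLXNB1 at 0.05 ± 0.18 and PLXND1 at -0.33 ± 0.22 did not pass. The difference of SEMA3B was short of the threshold without siRNA control replicate 1 (-0.98), without shCON replicate 2 (-0.93) and without shETS1 replicate 2 (-0.97). The median difference of the 10 genes was -1.0, against -0.0200 over all genes.

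The start-site windows of some of these genes are shown because ETS factors such as ETS1 bind DNA around a GGAA core, and because ETS1 was the gene knocked down. The sequences are RefSeq's (GRCh38.p14, a later build than the GRCh37 of the counts), run 5′ to 3′ on the gene's strand from 250 bases before to 50 bases after a start site, and were found for 8 of the 10 genes in 16 windows. SEMA3A and NRP1 had no entry. NRP2 and PLXNA2 are the receptors with the largest falls among those with a window, SEMA3C is the ligand that rose, and PLXNB1 is the one gene with the longer match CCGGAAG on either strand. In the first 3, capitals mark each GGAA or its complement TTCC, and in PLXNB1 they mark CCGGAAG only.
NRP2: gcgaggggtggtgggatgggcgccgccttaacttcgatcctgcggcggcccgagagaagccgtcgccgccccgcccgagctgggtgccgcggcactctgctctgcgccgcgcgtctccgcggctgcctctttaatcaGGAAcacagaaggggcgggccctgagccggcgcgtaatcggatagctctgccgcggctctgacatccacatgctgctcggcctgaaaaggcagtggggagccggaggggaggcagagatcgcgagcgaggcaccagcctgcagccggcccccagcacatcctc
PLXNA2: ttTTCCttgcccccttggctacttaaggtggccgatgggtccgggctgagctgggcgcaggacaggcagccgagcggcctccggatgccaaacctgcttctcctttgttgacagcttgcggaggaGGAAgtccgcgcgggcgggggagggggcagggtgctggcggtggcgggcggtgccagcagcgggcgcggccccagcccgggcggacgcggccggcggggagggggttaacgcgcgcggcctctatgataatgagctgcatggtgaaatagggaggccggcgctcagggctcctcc
SEMA3C: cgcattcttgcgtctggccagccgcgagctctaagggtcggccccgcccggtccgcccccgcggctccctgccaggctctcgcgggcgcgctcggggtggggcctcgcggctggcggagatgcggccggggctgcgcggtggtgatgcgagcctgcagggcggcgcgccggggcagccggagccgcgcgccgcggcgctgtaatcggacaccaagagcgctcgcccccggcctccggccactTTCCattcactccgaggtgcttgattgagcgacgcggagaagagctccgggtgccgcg
PLXNB1: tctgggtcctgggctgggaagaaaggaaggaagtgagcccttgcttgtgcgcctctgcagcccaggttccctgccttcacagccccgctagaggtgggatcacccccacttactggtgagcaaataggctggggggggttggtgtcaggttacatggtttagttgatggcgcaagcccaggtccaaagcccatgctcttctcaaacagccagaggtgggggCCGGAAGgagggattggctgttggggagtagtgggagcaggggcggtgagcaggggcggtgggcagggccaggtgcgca
These windows are chr2:205682251-205682550 on the plus strand for NRP2, and chr1:208244335-208244634, chr7:80919002-80919301 and chr3:48430037-48430336 on the minus strand for PLXNA2, SEMA3C and PLXNB1. GGAA on either strand was found 1 time in the window of NRP2, 2 times in that of PLXNA2 and 1 time in that of SEMA3C shown, and 4 times in the other window of SEMA3C. In the single windows of PLXNA1 and PLXND1 it was found 1 time each, in the 3 windows of SEMA3F 1, 3 and 6 times, and in the 5 windows of SEMA3B from 1 to 5 times. Each of the 2 PLXNB1 windows held 5 GGAA cores and 1 CCGGAAG, at -29 from the start site in the window shown. GGAA stood in 95.5% of all 35116 windows of this length, with a median of 3 sites, and CCGGAAG in 10.3% of them. A match of letters is not a binding site, and binding of ETS1 to these windows was not tested here. The study mapped ETS1 binding in SCC25 by ChIP-Seq, and its sites were not compared with these windows.

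Divided by exonic length, SEMA3C was the most abundant of the 10 transcripts in each of the 4 groups, and PLXNA1 the next. In siRNA control the order of level was SEMA3C at 55.3 ± 14.3, PLXNA1 at 26.2 ± 0.0347, SEMA3F at 12.8 (11.2 and 14.3 in the replicates), NRP1 at 8.70 ± 1.12, PLXNA2 at 6.56 ± 0.0520, NRP2 at 3.98 ± 0.0847, SEMA3A at 3.14 ± 0.277, PLXNB1 at 2.47 ± 0.00761, SEMA3B at 0.779 ± 0.0761 and PLXND1 at 0.484 ± 0.00146 CPM per kb (SD, n = 2). No neighbours in that order overlapped. In ETS1 siRNA the replicates of NRP1 and PLXNA2, of NRP2 and PLXNB1, and of SEMA3A and SEMA3B overlapped, so the order within these pairs is not set. In shCON the level of SEMA3C was 55.3 ± 1.44 CPM per kb and that of SEMA3A 1.02 ± 0.0341, and NRP2 and PLXNB1 overlapped. In shETS1 SEMA3C stood at 87.2 ± 2.70 CPM per kb, and SEMA3A at 0.0852 ± 6.54e-04 had become the lowest of the 10, below SEMA3B at 0.322 ± 0.0367. NRP2 moved from 6th place in shCON, at 1.84 ± 0.314 CPM per kb, to 8th in shETS1, at 0.457 ± 0.0392.

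The make-up of the ligand pool shifted accordingly. SEMA3C supplied 83.2% and 84.3% of the length-scaled transcripts of the 4 ligands in shCON and 93.8% and 93.5% in shETS1. SEMA3A supplied 1.53% and 1.57% in shCON and 0.0891% and 0.0939% in shETS1, and the ratio of SEMA3C to SEMA3A was 54.4 and 53.9 in shCON and 1050 and 996 in shETS1. With siRNA the SEMA3C share was 81.4% and 71.0% in the control and 60.6% and 67.6% in the knockdown, and that of SEMA3F was 14.0% and 22.5% in the control and 34.1% and 27.8% in the knockdown. The 4 ligands summed to 65.2 and 66.8 CPM per kb in shCON and to 95.0 and 91.2 in shETS1, so the ligand sum was higher while 2 of its 4 members fell. The neuropilin sum was 9.16 and 8.33 CPM per kb in shCON and 3.72 and 3.80 in shETS1, and that of the 4 plexins 21.0 and 19.2 in shCON and 12.1 and 13.0 in shETS1.

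Among the receptors, NRP1 made up 77.5% and 80.6% of the neuropilin transcripts in shCON and 88.5% and 87.2% in shETS1, as the ratio of NRP1 to NRP2 went from 3.45 and 4.15 to 7.67 and 6.84. In the siRNA arm this ratio lay between 2.01 and 2.71 and the groups overlapped. PLXNA1 kept a share of 62.2% and 63.5% of the 4 plexins in shCON and 61.0% and 61.8% in shETS1. PLXNA2 supplied 26.2% and 23.0% in shCON and 17.1% and 18.5% in shETS1, while the share of PLXNB1 was 16.8% and 14.1% with the ETS1 hairpin against 7.60% and 9.30% without. The larger PLXNB1 share went with a level of PLXNB1 that did not pass the threshold and a lower sum of the plexins.

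**Figure D4:**
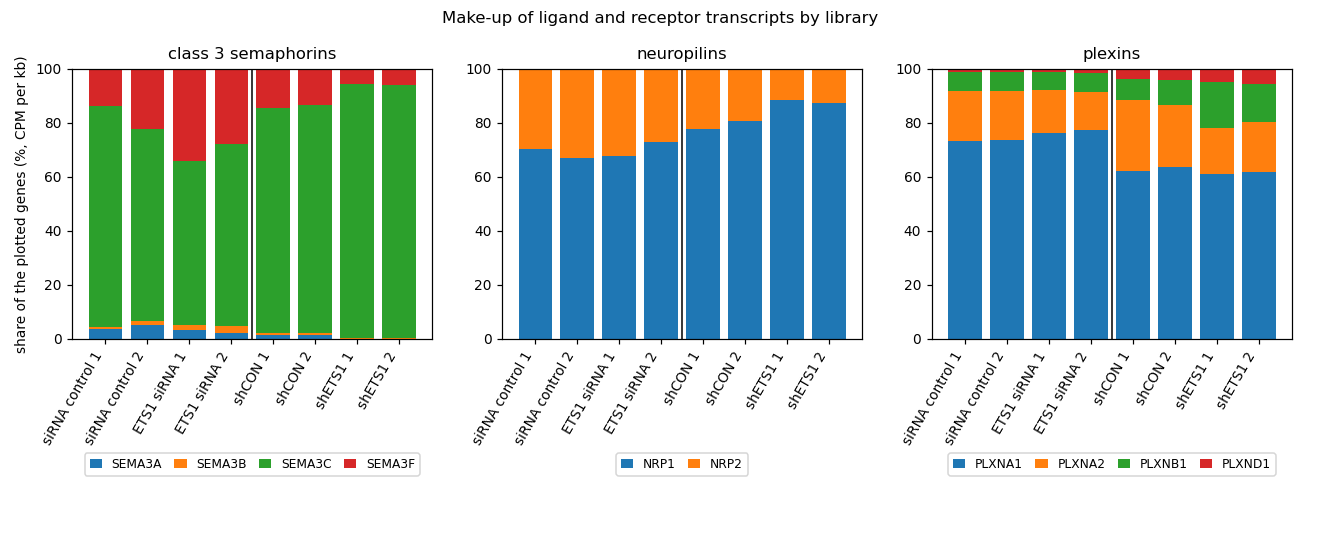
Share of each transcript within the 4 class 3 semaphorins, the 2 neuropilins and the 4 plexins (%, from CPM per kb of exon) in each of the 8 libraries, with a line between the siRNA and hairpin arms. SEMA3C takes 93.8% and 93.5% of the ligand bar in shETS1, and PLXNA1 takes the largest part of each plexin bar.

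The rest of the signalling system was read from 63 other genes in 6 lists. With the hairpin 54 of these could be tested and 38 passed (70.4%, against 60.6% over all genes), 10 as higher and 28 as lower, with a median log2 fold change of -0.30. The 10 higher calls became 5 with DESeq2 and 6 without shCON replicate 2. With siRNA 53 could be tested and 2 passed, SEMA7A and VEGFA, both as lower (3.77%, against 3.41% over all genes), with a median of -0.01. For the difference between the arms 56 were tested and 24 passed (42.9%, against 34.8%), 5 as higher and 19 as lower, with a median of -0.32. The 5 higher calls became 3 without siRNA control replicate 1, without shCON replicate 2 and without either shETS1 replicate. The siRNA count rests on single libraries, since it was 0 without siRNA control replicate 1, 1 without ETS1 siRNA replicate 2 and 14 without ETS1 siRNA replicate 1.

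Of the other class 3 semaphorins, SEMA3D and SEMA3E were too low to test in either arm, and SEMA3G, which binds NRP2, could be tested with the hairpin only and did not pass (log2 0.28 ± 0.48 SE, adjusted p = 0.66). Of the 13 semaphorins of other classes, 11 were tested with the hairpin, 2 rose and 5 fell. SEMA7A, a membrane-anchored semaphorin that binds integrins and PLXNC1, fell in both arms. SEMA7A stood at 194 and 118 CPM in siRNA control and 71.5 and 87.0 CPM in ETS1 siRNA (log2 -0.98 ± 0.23 SE, adjusted p = 0.093), and at 8.55 and 7.21 CPM in shCON and 1.79 and 1.55 CPM in shETS1 (log2 -2.24 ± 0.19 SE, adjusted p = 2.5e-08). SEMA6D, a transmembrane ligand of A-type plexins, went the other way with the hairpin, from 7.84 and 7.36 CPM in shCON to 64.2 and 68.2 CPM in shETS1 (log2 3.12 ± 0.10 SE, adjusted p = 1.0e-13), the largest change in either direction among the semaphorins tested in that arm other than SEMA3A. With siRNA SEMA6D stood at 1.51 and 2.12 CPM in the control and 1.34 and 1.03 CPM in the knockdown (log2 -0.61 ± 0.35 SE, adjusted p = 0.39).

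SEMA4B, a transmembrane semaphorin, stood at 40.9 and 36.2 CPM in shCON and 17.3 and 20.7 CPM in shETS1 (log2 -1.02 ± 0.10 SE, adjusted p = 2.6e-07). With siRNA SEMA4B stood at 336 and 373 CPM in the control and 515 and 407 CPM in the knockdown (log2 0.38 ± 0.15 SE, adjusted p = 0.23). SEMA4D, the ligand of PLXNB1, fell with the hairpin (log2 -0.81 ± 0.28 SE, adjusted p = 0.023), on 81 and 49 reads in shCON and 28 and 42 in shETS1. SEMA4C fell as well (log2 -0.36 ± 0.13 SE, adjusted p = 0.029), as did the low SEMA6A (log2 -1.06 ± 0.50 SE, adjusted p = 0.081). SEMA6C rose (log2 0.66 ± 0.25 SE, adjusted p = 0.034), on 39 and 32 reads in shCON and 49 and 57 in shETS1. SEMA4A, SEMA4F, SEMA4G and SEMA5A passed in neither arm, and SEMA5B and SEMA6B were not tested.

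Of the 5 other plexins, 3 fell with the hairpin and none passed with siRNA. PLXNB2, a broadly expressed receptor of class 4 semaphorins, stood at 64.7 and 58.2 CPM in shCON and 49.2 and 51.6 CPM in shETS1 (log2 -0.29 ± 0.08 SE, adjusted p = 0.0064). PLXNA4, a further A-type plexin, fell from 1.19 and 0.848 CPM to 0.654 and 0.238 CPM (log2 -1.21 ± 0.44 SE, adjusted p = 0.028), and PLXNC1, the receptor of SEMA7A, from 5.41 and 6.21 CPM to 4.27 and 4.88 CPM (log2 -0.34 ± 0.16 SE, adjusted p = 0.084). PLXNA3 and PLXNB3 did not pass, and PLXNB3 shares 20.4% of its exonic bases with SRPK3 on the same strand, so its reads are uncertain.

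**Figure D5:**
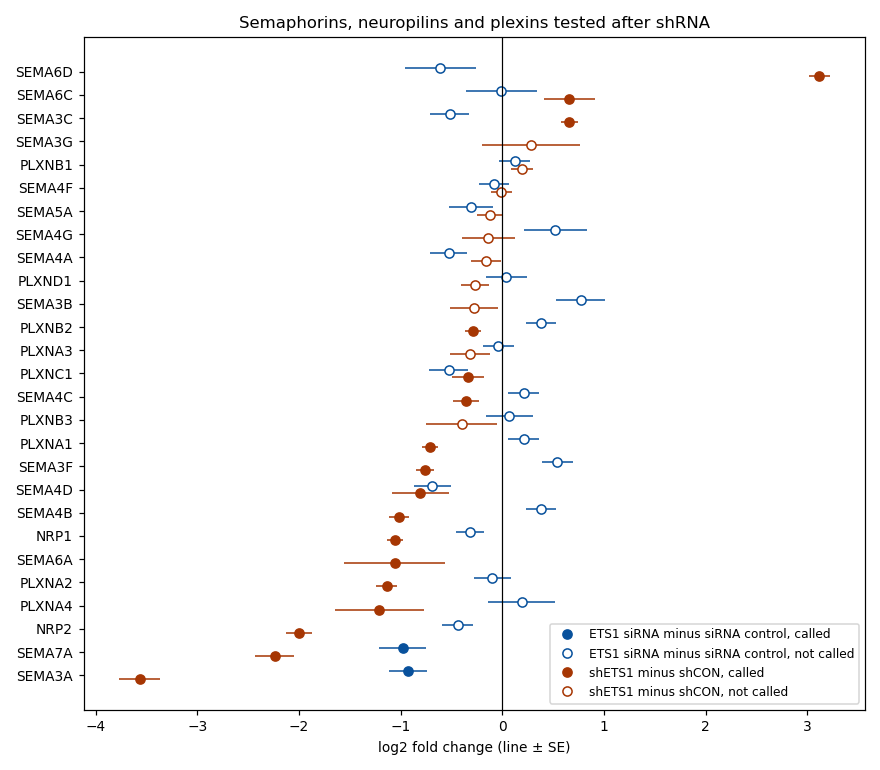
Log2 fold change ± SE (x axis) of each semaphorin, neuropilin and plexin that could be tested with the hairpin, in the siRNA arm (blue) and the hairpin arm (brown), with filled points where the adjusted p was under 0.1. SEMA6D at 3.12 and SEMA3A at -3.57 are the ends of the hairpin values, and SEMA3A and SEMA7A are the filled points of the siRNA arm.

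Of the 13 other neuropilin ligands and co-receptors, 11 were tested with the hairpin, of which 3 rose and 6 fell. VEGFA, the growth factor that competes with SEMA3A for NRP1, stood at 146 and 143 CPM in shCON and 24.5 and 23.5 CPM in shETS1 (log2 -2.59 ± 0.08 SE, adjusted p = 9.4e-14). With siRNA VEGFA stood at 249 and 229 CPM in the control and 171 and 164 CPM in the knockdown (log2 -0.51 ± 0.13 SE), with an adjusted p of 0.0998 just inside the threshold. VEGFC, a ligand of NRP2, stood at 79.6 and 74.9 CPM in shCON and 15.8 and 15.7 CPM in shETS1 (log2 -2.30 ± 0.09 SE, adjusted p = 8.9e-13), and with siRNA at 267 and 260 CPM in the control and 249 and 262 CPM in the knockdown (log2 -0.04 ± 0.12 SE, adjusted p = 0.88). VEGFB, a ligand of NRP1, fell with the hairpin as well (log2 -0.80 ± 0.11 SE, adjusted p = 1.1e-05). KDR, the VEGF receptor that NRP1 assists in endothelium, rose with the hairpin from 1.83 and 1.70 CPM to 24.0 and 23.8 CPM (log2 3.76 ± 0.14 SE, adjusted p = 9.8e-13), in libraries where PECAM1 and CDH5 were at 0. The sum of the 4 endothelial markers was 0.278 to 0.385 CPM in shCON and 0.784 to 1.03 CPM in shETS1, with TEK at 0.0796 and 0.116 CPM in shCON and 0.697 and 0.951 CPM in shETS1 (2 and 3 against 16 and 24 reads), and their part in the KDR value was not tested.

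Of the 4 proprotein convertases, which cleave class 3 semaphorins and so set their activity, FURIN stood at 65.1 and 61.1 CPM in shCON and 31.9 and 36.2 CPM in shETS1 (log2 -0.89 ± 0.09 SE, adjusted p = 1.3e-07). PCSK7 fell by 0.31 on the log2 scale (adjusted p = 0.012) and PCSK6 rose (log2 0.28 ± 0.13 SE, adjusted p = 0.070), both with exons that other genes share. None of the 4 passed with siRNA. Of the 25 intracellular effectors, 22 were tested with the hairpin, 4 rose and 12 fell, and with siRNA 23 were tested and none passed. RAC1, the GTPase downstream of plexins, stood at 304 and 307 CPM in shCON and 183 and 200 CPM in shETS1 (log2 -0.67 ± 0.08 SE, adjusted p = 8.1e-07). MICAL2, of a family of actin-oxidising enzymes, fell with the hairpin (log2 -1.19 ± 0.10 SE, adjusted p = 3.2e-08), as did DPYSL2, a microtubule-binding mediator of SEMA3A (log2 -0.73 ± 0.09 SE, adjusted p = 1.7e-06). SH3BP1, a GTPase-activating protein for RAC1, fell too (log2 -1.57 ± 0.11 SE, adjusted p = 1.6e-09), with 35.7% of its exonic bases shared with another protein-coding gene model on the same strand.

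Over the 8 libraries, centred within each arm, the genes whose pattern lay closest to that of SEMA3A among 10049 genes were NAV3, CCND2 and VEGFA, by the root-mean-square difference of log2(CPM + 1), at 0.142, 0.146 and 0.195 against a median of 0.959 over those genes. The log2 fold changes of NAV3 were -0.95 with siRNA and -3.18 with the hairpin, and those of CCND2 -0.55 and -3.11. Those of VEGFA were -0.51 and -2.59, against -0.93 and -3.57 for SEMA3A. SEMA3A stood at 0.784 and 0.793 CPM in shETS1, below the 1 CPM added before the log, so this measure shrinks its fall. Closest to NRP2 were TENM3 at 0.0762, SH3KBP1 at 0.115 and SPRY4 at 0.122, against a median of 0.684, with hairpin values of -1.91, -1.88 and -1.96. Closest to PLXNA2 were PTPRF at 0.0484, MYO10 at 0.0608 and THSD4 at 0.0619, against a median of 0.444, with hairpin values of -1.20, -1.17 and -1.17. These likenesses are descriptions over the same 8 libraries that gave the fold changes, and the libraries share their cell line and their arm.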

How the data were processed

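RNA from 8 SCC25 libraries (4 groups of 2) was sequenced as 50-base single-end reads. The authors mapped them to GRCh37 and counted them per gene. The submitters' processing notes name TopHat2 2.1.1, Bowtie2 2.2.6 and featureCounts 1.5.0. Strand and multi-mapping settings are not given in the sources used here. The deposited values are raw counts per gene in 1 table per arm, with 15954616 to 25953213 counts per library.

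Knockdown and control of an arm (4 libraries) were compared by edgeR 4.0.16 (R 4.3.3; TMM scaling, filterByExpr, quasi-likelihood F-test, two-sided), with Benjamini-Hochberg adjustment over all genes tested and a threshold of 0.1. The difference between arms was a contrast on all 8 libraries. A standard error is the log2 fold change divided by the root of F. CPM was divided by exonic length in kb (GENCODE on GRCh37, with the exons of all transcripts merged) to compare genes. The authors counted on an Ensembl annotation, so orders, ratios and shares between genes are approximate. The fits were tested on simulated counts. There, the fits of the siRNA arm and of the difference between arms called more unchanged genes than the threshold implies. Unchanged genes made up 21.5% of the calls with siRNA, 8.47% with the hairpin and 15.0% for the difference. Of the genes given a log2 change of 1, 74.9%, 82.7% and 46.7% were recovered, in that order. Such genes were 195 of 14688, 196 of 16348 and 195 of 16505. In the real counts 60.6% of genes were called with the hairpin, and error rates at that share were not tested. The replicates of each group differed by more than sampling noise (chi-square per degree of freedom 6.23 to 23.2).

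The 10 genes, the 63 other genes and the markers were chosen with earlier results of these data known. All 10 genes, and all testable semaphorins and plexins of the first 3 lists, may be named. Of the other lists up to 4 called genes per comparison are named, those with the largest absolute log2 fold change at a mean of 5 CPM or more, and for each of the 3 genes with the largest hairpin change the 3 nearest genes at 5 CPM or more in both tables. Alternatives were other scalings, count filters, a stricter threshold, DESeq2 1.42.0, a replicate block, a fit of all 8 libraries and leaving out each library.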

Additional observations from a re-analysis of the deposited data

Results flagged for a closer look

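The effect of the hairpin differed from that of the siRNA past the threshold, in the contrast fitted on all 8 libraries, for 8 of the 10 genes. It did so for 15 others of the semaphorin system named here, 23 in all. The 10 genes were chosen on these data, and many of the others were named only because they were called. The 23 are therefore not a share of the genes tested. Of the 63 other genes, 56 were tested and 24 passed (42.9%), where 34.8% of all genes did. ETS1 passed as well, with a difference of 1.23, and so did KDR, as higher, for which no difference is given because its siRNA libraries held 2 to 5 reads. The log2 differences, hairpin effect minus siRNA effect, were -2.66 for SEMA3A, -1.07 for SEMA3B, 1.15 for SEMA3C, -1.32 for SEMA3F, -0.76 for NRP1, -1.59 for NRP2, -0.94 for PLXNA1 and -1.06 for PLXNA2. SEMA3C and SEMA3F had effects of opposite sign in the 2 arms, and the siRNA effects of both were short of the threshold in the main fit. Both passed with DESeq2, with no filter on low counts and with all 8 libraries in 1 fit. SEMA3F also passed with at least 10 counts per library and with the filter at 1 TPM. Neither passed with the replicate block.

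Among the other semaphorins and plexins the differences were 3.71 for SEMA6D, -1.42 for SEMA4B, -1.28 for SEMA7A, -0.59 for SEMA4C and -0.69 for PLXNB2. Among the growth factors that neuropilins bind they were -2.10 for VEGFA, -2.27 for VEGFC and -1.16 for VEGFB. Among the convertases and effectors they were -0.96 for FURIN, -0.43 for PCSK7, -1.69 for SH3BP1, -1.07 for RAC1, -0.77 for RRAS, -0.74 for DPYSL2 and -0.72 for MICAL2. RRAS, a GTPase that plexins inactivate, passed in neither arm alone (0.58 ± 0.16 SE with siRNA and -0.17 ± 0.09 SE with the hairpin). The arms differ in delivery, duration, selection, count table, library make-up and depth of ETS1 loss, and these cannot be told apart in any of the differences. ETS1 was 17.6-fold lower with siRNA and 7.40-fold lower with the hairpin. Structural small RNAs took at most 0.00339% of the counts in the siRNA arm. In the hairpin arm they took 5.61% and 6.63% in shCON, and 12.3% and 9.64% in shETS1.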

How the results depend on the processing

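The total of hairpin calls kept within 1.5 times under each alternative, for the 10 genes and the 63 others, as did the total of calls on the difference between arms. Among the 63, the 10 higher hairpin calls became 5 with DESeq2, and the 5 higher calls on the difference became 3 at adjusted p under 0.05, with library size only, with the TPM filter and with the replicate block. The 7 genes called with the hairpin remained called in each alternative that tested them. The filter at 1 TPM did not test SEMA3A or SEMA3B in that arm. With siRNA, the 1 call among the 10 genes and the 2 among the others became 0 and 0 at adjusted p under 0.05, 5 and 8 with no filter, 2 and 6 with at least 10 counts per library, 2 and 6 with the TPM filter, 3 and 6 with DESeq2, and 4 and 11 with all 8 libraries in 1 fit. Leaving out each library gave 0 to 3 and 0 to 14, with 0 and 0 without siRNA control replicate 1 and 3 and 14 without ETS1 siRNA replicate 1. With the replicate block they were 0 and 0. Same-numbered libraries deviated in opposite directions (correlation -0.573 with siRNA and -0.415 with the hairpin). The labels do not say whether the numbers pair libraries that were prepared together. A crossed replicate block, chosen after seeing the data, gave 6 and 16. Over all genes with siRNA the block called 97 and the crossed block 3238, against 502. Signs turned for values short of the threshold only. With siRNA these were PLXNB1 (-0.03 without ETS1 siRNA replicate 1, the range over left-out libraries reaching 0.27) and PLXNA2 (0.15 without ETS1 siRNA replicate 2). In the difference between arms it was PLXNB1, at -0.04 with library size only, -0.10 without ETS1 siRNA replicate 2, -0.03 without shCON replicate 1 and -0.0045 without shETS1 replicate 1, and at most 0.20 over left-out libraries. Scaling by library size moved the median of all genes with the hairpin to -0.125, and PLXND1 (-0.40) then passed the threshold as lower. Groups of 2 libraries limit the errors, and the cause of each change was not tested.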
